A study of Mus musculus with 12 samples.

Results

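The genes described here encode the nuclear subunits of the mitochondrial respiratory chain and of the ATP synthase. They are the genes whose single annotated symbol starts with Nduf, Sdha, Sdhb, Sdhc, Sdhd, Uqcr, Atp5, Cox4, Cox5, Cox6, Cox7 or Cox8, each represented by its brightest probe set (mean log2 intensity over all 12 arrays). This gave 73 genes of 8251 on the array: 29 of complex I, 4 of complex II, 7 of complex III, 15 of complex IV, 14 of complex V (the ATP synthase) and 4 assembly factors, of which 2 serve complex I and 2 complex II. The rule used names and the mean over all arrays and no comparison of groups, but the gene families were chosen with earlier results of these data known. A further 10 probe sets match several symbols, at least 1 of them of these families, and were left out. The values come from Affymetrix arrays of total RNA from thymus cell suspensions of C57Bl/6 mice. One group held leukemic cells from the thymus of terminally ill mice with the genotype TEL-JAK2, a fusion of the transcription factor TEL (Etv6) with the tyrosine kinase Jak2 (8 arrays, age not stated in the labels). The 4 other arrays held wild-type thymocytes, taken at an age of 2 months. The labels name neither the promoter that drives TEL-JAK2 nor a sort of the cells, so each suspension can hold other cells of the thymus. Whether each array is a different mouse is not stated, and the p-values therefore speak only of the spread among these arrays, part of which may be technical.

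The respiratory chain lies in the inner mitochondrial membrane. Complexes I and II pass electrons from NADH and succinate to ubiquinone, complex III passes them on to cytochrome c, and complex IV to oxygen. Complexes I, III and IV pump protons, and complex V lets them flow back to make ATP. Complexes I, III, IV and V also hold subunits encoded by mitochondrial DNA, which are not analysed here, while complex II is wholly nuclear. T cells draw on this chain both at rest and when they activate and divide, and nuclear subunit genes are known to share control by the factors NRF1, GABP (an ETS factor) and YY1.

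The promoters of the 4 genes with the largest moderated statistic for a higher level in leukemia are shown to let the sequence stand beside the values that follow. They are RefSeq windows of the build GRCm38.p6, from 250 bases before to 50 bases after the start, written 5′ to 3′ on the gene's strand. Capitals mark matches on either strand to GCATGCG (core of the NRF1 site), CCGGAAG (core of the GABP and other ETS sites) or AAGATGG (core of the YY1 site), where matches may overlap.
Atp5l (chr9:44920693-44920992, - strand): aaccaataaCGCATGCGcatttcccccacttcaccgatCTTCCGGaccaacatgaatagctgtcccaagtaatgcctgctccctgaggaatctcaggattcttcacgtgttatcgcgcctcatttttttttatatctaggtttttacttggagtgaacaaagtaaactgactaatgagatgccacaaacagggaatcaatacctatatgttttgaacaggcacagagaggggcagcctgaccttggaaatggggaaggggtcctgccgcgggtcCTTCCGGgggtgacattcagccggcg
Ndufv3 (chr17:31519865-31520164, + strand): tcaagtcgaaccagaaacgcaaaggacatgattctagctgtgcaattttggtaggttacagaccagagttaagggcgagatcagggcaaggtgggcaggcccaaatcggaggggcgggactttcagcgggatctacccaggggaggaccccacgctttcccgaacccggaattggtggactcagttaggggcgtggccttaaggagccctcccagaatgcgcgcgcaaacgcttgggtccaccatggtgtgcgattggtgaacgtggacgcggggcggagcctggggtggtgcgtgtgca
Ndufa6 (chr15:82354242-82354541, - strand): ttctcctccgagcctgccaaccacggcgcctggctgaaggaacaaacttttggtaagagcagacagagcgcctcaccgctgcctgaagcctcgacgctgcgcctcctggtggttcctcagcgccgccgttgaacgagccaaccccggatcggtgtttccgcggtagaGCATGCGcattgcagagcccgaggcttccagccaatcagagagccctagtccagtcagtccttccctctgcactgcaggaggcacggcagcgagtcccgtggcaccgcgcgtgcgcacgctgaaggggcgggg
Cox5b (chr1:36691237-36691536, + strand): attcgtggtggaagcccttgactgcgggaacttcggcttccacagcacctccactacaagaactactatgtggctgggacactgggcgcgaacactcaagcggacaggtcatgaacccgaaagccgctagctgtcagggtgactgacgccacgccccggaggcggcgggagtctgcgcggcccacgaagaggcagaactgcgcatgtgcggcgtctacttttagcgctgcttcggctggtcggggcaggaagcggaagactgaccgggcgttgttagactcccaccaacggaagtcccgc
The Atp5l window held overlapping matches to the NRF1 core on the forward and reverse strands, starting 240 and 241 bases before the start, and 2 reverse matches to the ETS core, 212 bases before and 25 bases after it. The Ndufa6 window held 1 NRF1 match, 83 bases before the start, and the letters searched were not in the Ndufv3 and Cox5b windows. Of the 73 genes, 60 had a window in the table. The NRF1 core was in the windows of 11 of these (18.3%), against 6.43% of the 6576 genes on the array with a window. The ETS core was in 18 (30%, against 17.1%) and the YY1 core in 8 (13.3%, against 7.85%). Of the 8 genes that were higher in leukemia, 2 (25%) held any of the 3 motifs, beside 27.7% of the genes on the array, and of the 52 genes with a window that did not pass the test, 28 (53.8%) did.

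The arrays were close in brightness, with median intensities from 66.5 to 70.2, and from 59.6% to 65.4% of probe sets lay above the control level, the 95th percentile of 19 control probe sets for non-mouse transcripts on each array. Of the 8 T-cell and thymocyte markers measured, all 8 had group means above the control level, while Cd2 was higher in leukemia (1.38) and Cd4 lower (-1.89). Rag1, part of the receptor gene recombinase, had the largest difference of these markers (-2.50, limma adjusted p = 0.082). It was below every thymocyte array in all 8 leukemias, and in leukemia 1 (4.86) below the control level of that array (5.54). Of 12 macrophage markers 8 were above it by group means. Their mean log2 value was 6.09 to 6.43 in thymocyte arrays and 6.06 to 7.75 in leukemias, and limma called 0 of the 12 at an adjusted p under 0.05, with 3 at an unadjusted p under 0.05. Of the respiratory chain and ATP synthase genes, 67 had means above the control level in both groups, and Ndufs4, Ndufc2, Cox5a, Cox8a, Cox7a1 and Ndufaf4 lay near it in both, so that their differences may be understated. In such bulk samples fewer cells of a type and less RNA per cell cannot be told apart. Precision is limited by there being only 12 arrays.

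The comparison asked whether arrays of TEL-JAK2 leukemic cells gave more or less signal for these transcripts than arrays of normal thymocytes. The arrays were close in median intensity as deposited, and the amount of a transcript per cell was not measured. On the brightest probe set of each gene the signals differed little. All 73 differences lay between -0.23 and 0.42 on the log2 scale, that is from 0.85-fold to 1.34-fold, and so all 73 lay within 0.5 of 0, a limit chosen after the values were seen, beside 87.7% of all 8251 genes. Of the 73 genes, 8 were higher in leukemia, 1 was lower and 64 did not pass the test (limma, Benjamini-Hochberg adjusted p under 0.05 over all genes). This is 11% higher and 1.37% lower, beside 5.41% higher and 11.9% lower over all genes (17.3% in either direction). Of the 60 genes above the median brightness of all genes, the same 8 were higher and 1 lower, beside 7.98% and 17% of the 4125 genes at that brightness. At an unadjusted p under 0.05 there were 19 (26.0%), a share below the 28.4% of all genes. The 8 leukemias all lay above the 4 thymocyte arrays for 4 genes and all below for 1, beside 4.21% and 8.11% of all genes. The leukemia mean was above the thymocyte mean for 54 genes (74.0%), beside 50.9% of all genes and 44.3% of these brighter genes, and the median difference was 0.069, beside 0.0037 and -0.032. For 63 of the 64 genes that did not pass, the 95% interval of the difference stayed within 1.5-fold either way. Cox6b2 was the exception. On its other probe sets, described below, Cox6b2 differed by -0.93 and -0.63, outside the range given above.

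**Figure D1:**
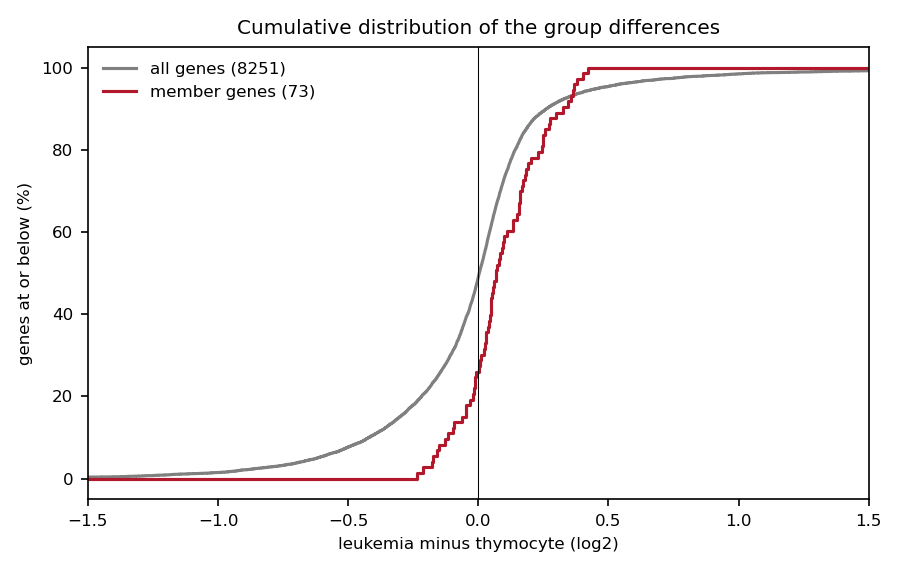
Cumulative share of genes (y axis, percent) at or below each log2 difference of leukemia minus thymocyte (x axis), for all 8251 genes in grey and the 73 respiratory chain and ATP synthase genes in red. With the brightest probe set of each gene, the red curve spans only -0.23 to 0.42. It crosses 0 lower than the grey curve, since 54 of the 73 differences are above 0. The axis is cropped at 1.5 either way.

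**Figure D2:**
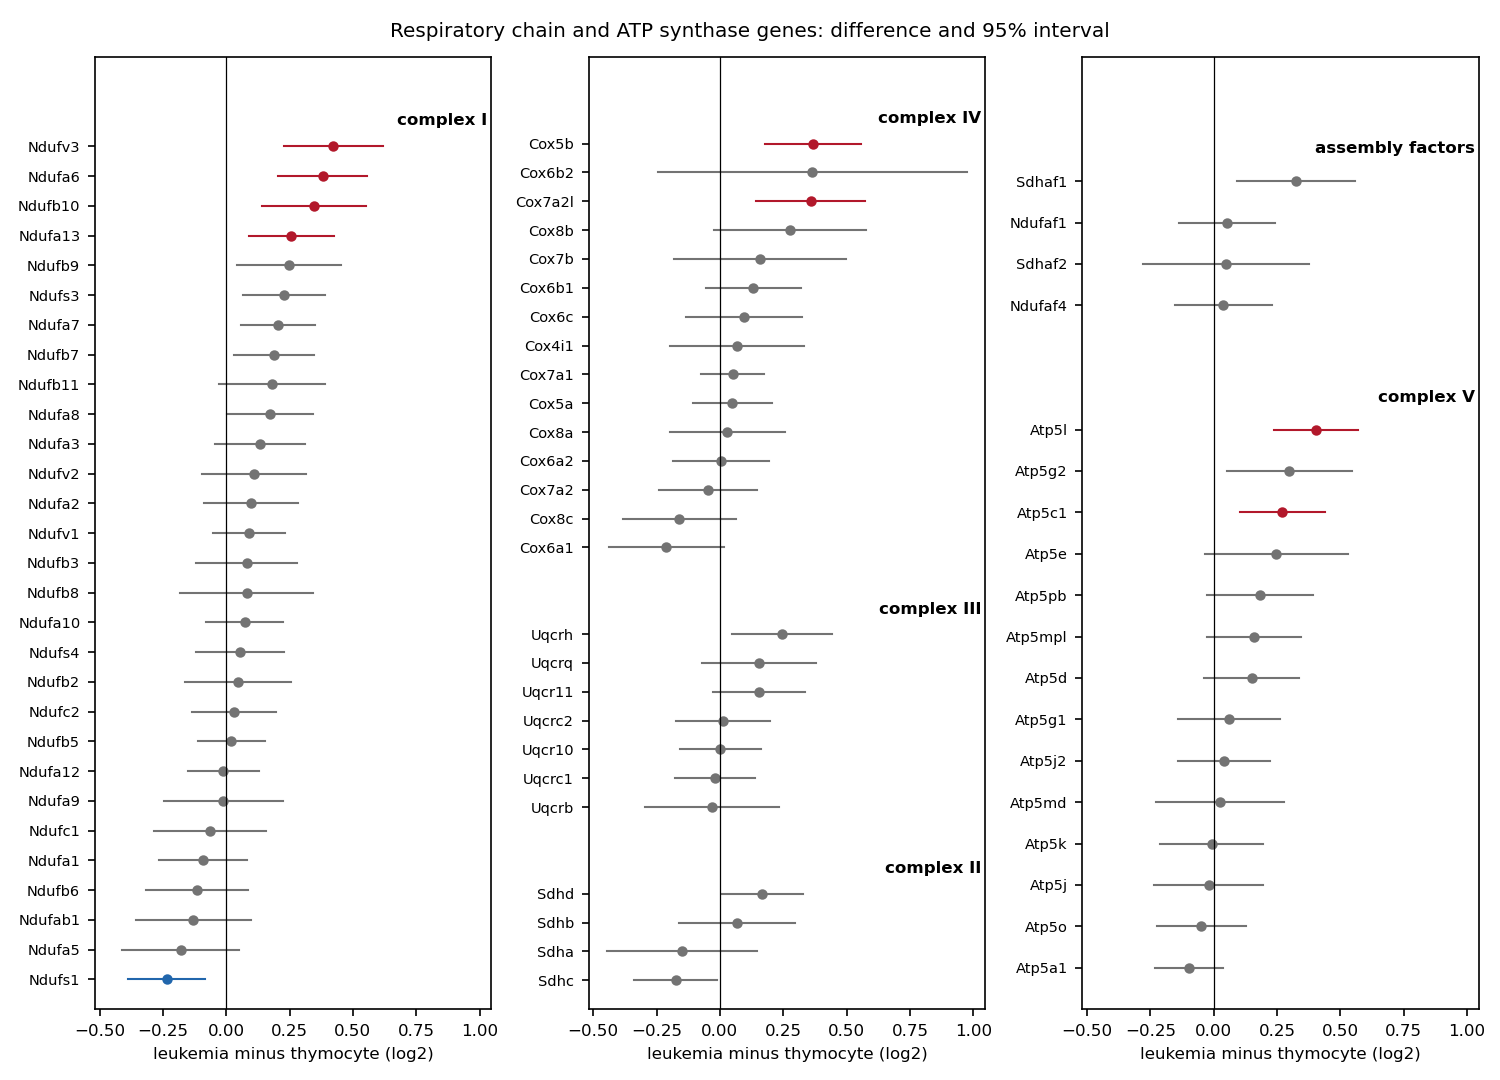
Log2 difference of leukemia minus thymocyte (x axis; points) with its 95% interval (lines) for each of the 73 genes, grouped by complex and ordered by size. Genes higher in leukemia by the test are red (8), the 1 lower gene, Ndufs1, is blue, and the 64 others are grey; Cox6b2 has the widest interval, -0.25 to 0.98.

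Thymocyte array 3 was the lowest of its group for 54 of the 73 genes and for all 8 that were higher in leukemia, and thymocyte array 4 the highest for 47 and for 6 of those 8. The median of the genes, relative to the thymocyte mean, was -0.010, 0.017, -0.13 and 0.12 in thymocyte arrays 1 to 4. In leukemias 1 to 8 it was 0.11, 0.12, 0.15, 0.13, -0.0094, 0.12, 0.022 and 0.037, inside or just above the range of the thymocyte arrays. Over all genes the same array medians lay within 0.011 of 0 in thymocytes. Over genes above the median brightness they were 0.029, 0.011, -0.023 and -0.0061 in thymocyte arrays 1 to 4. Thymocyte array 3 also had the largest 3′ over 5′ difference of the actin control (0.59, against 0.36 to 0.54 on the other 11 arrays), and its part in the result was not tested. Without thymocyte array 3 only Atp5l, Ndufa6 and Ndufv3 remained higher and 0 genes lower (beside 3.68% and 8.8% of all genes). Without thymocyte array 1, 5 were higher and 0 lower (3.78% and 7.59% of all genes), and without thymocyte array 2, 4 and 0 (3.75% and 7.94%). Ndufs1 also missed the threshold without thymocyte array 4 or leukemia 7. Within the arrays with a title number of 4 digits (4 leukemias, 3 thymocyte arrays) 12 genes were higher and 0 lower (6.59% and 11.1% of all genes). The median was 0.11, beside 0.0025 over all genes. Within the others (4 leukemias and thymocyte array 4, whose spread is then assumed to be that of the leukemias) limma called 0.0121% of all genes higher and 0.0364% lower, so that its count of 0 of the 73 genes (4 at an unadjusted p under 0.05) says nothing about them. The median of the 73 genes there was -0.020, beside -0.024 over all genes. Of the 73 differences 34 were above 0 (46.6%), beside 45.4% of all genes. With the title number as a block 11 were higher and 1 lower (6.44% and 13.2% of all genes). With array weights estimated by limma 22 were higher and 4 lower (12.6% and 19.4% of all genes).

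**Figure D3:**
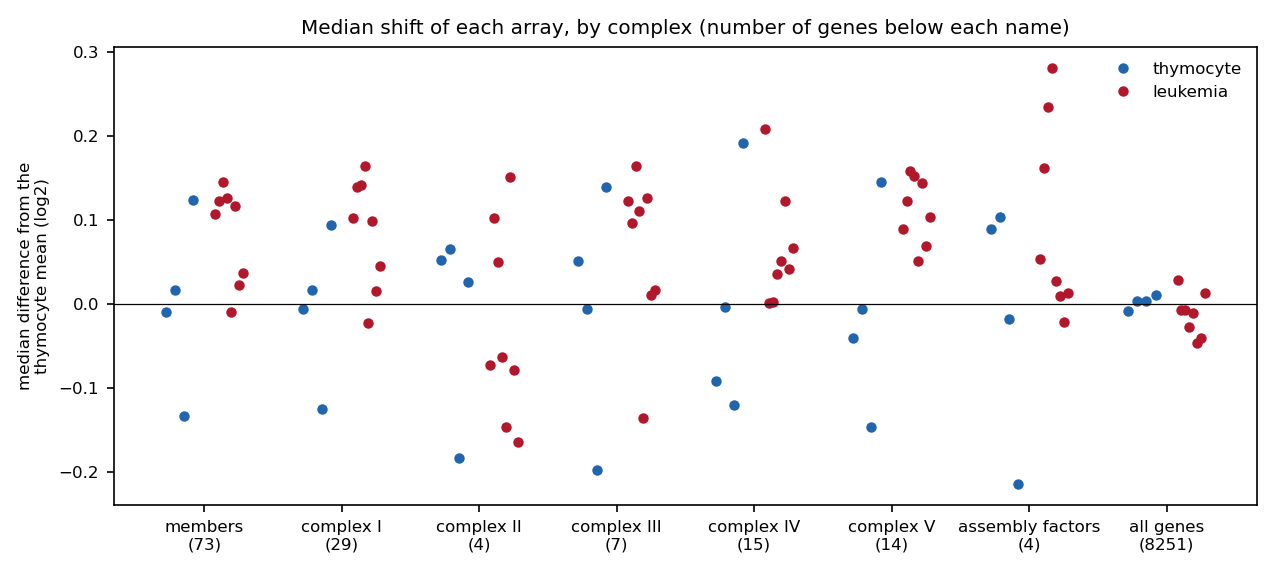
Median over the genes of each set of the log2 difference from the thymocyte mean (y axis), 1 point per array, thymocytes in blue and leukemias in red, for all 73 genes, each complex, the assembly factors and all 8251 genes. The thymocyte arrays spread from -0.13 to 0.12 over the 73 genes and overlap the leukemias, and stay within 0.011 of 0 over all genes.

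Complex I, the NADH dehydrogenase, had 4 of 29 genes higher in leukemia (13.8%) and 1 lower (3.45%), with a median difference of 0.082. Beside these stand 5.41% higher and 11.9% lower over all genes, and 7.98% and 17% of genes above the median brightness. Ndufv3, a small accessory subunit of the NADH-oxidizing module, was at 7.35, 7.37, 7.02 and 7.53 in thymocyte arrays 1 to 4, and in the leukemias it ran from 7.58 to 7.87 with a median of 7.76. All leukemias lay above all thymocyte arrays, and the difference was 0.42 (SE 0.091, limma adjusted p = 0.00534), or 1.34-fold. Ndufa6, an accessory subunit of the LYR family in the matrix arm whose promoter is shown above with an NRF1 match, was at 6.69, 6.72, 6.62 and 6.99 in thymocyte arrays 1 to 4, and in the leukemias it ran from 6.97 to 7.28 with a median of 7.14. Leukemia 7, the lowest, lay just below thymocyte array 4, and Ndufa6 rose 1.3-fold (0.38, SE 0.082, limma adjusted p = 0.00538). Ndufb10, an accessory subunit of the proton-pumping membrane arm, was at 9.16, 9.17, 8.86 and 9.29 in thymocyte arrays 1 to 4, and in the leukemias it ran from 9.32 to 9.73 with a median of 9.42. Its groups did not overlap, and it rose 1.27-fold (0.35, limma adjusted p = 0.0222, and 0.0539, 0.0514 and 0.0952 without thymocyte arrays 1, 2 and 3). Ndufa13, also known as GRIM-19 and part of the membrane arm, was at 8.34, 8.36, 8.22 and 8.55 in thymocyte arrays 1 to 4, and in the leukemias it ran from 8.39 to 8.72 with a median of 8.64. Leukemia 5 was the lowest of the leukemias. The increase of 1.2-fold had an adjusted p of 0.0347 by limma and missed the threshold without thymocyte array 1, 2 or 3 or leukemia 1, 3, 7 or 8.

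The gene that fell was Ndufs1, the largest core subunit of the matrix arm, which carries iron-sulfur clusters. It was at 8.12, 8.06, 8.05 and 8.08 in thymocyte arrays 1 to 4, and in the leukemias it ran from 7.59 to 7.93 with a median of 7.88. Every leukemia was below every thymocyte array, and the difference was -0.23 (SE 0.07, limma adjusted p = 0.0348), or 0.85-fold. It passed in 7 of 12 fits that left out 1 array (the exceptions were the 4 thymocyte arrays and leukemia 7), and not with quantile normalization (-0.17, adjusted p = 0.0941). Nor did Ndufs1 pass with the macrophage covariate or within the arrays with a 4-digit title number (-0.16, limma adjusted p = 0.102). Of 12 other settings, 7 gave the same call. Other core subunits did not pass. Ndufs3, a core subunit of the matrix arm, differed by 0.23 (limma adjusted p = 0.0513), and Ndufv1, which binds the flavin and accepts electrons from NADH, and Ndufv2 by 0.09 and 0.11. Of 12 genes of the matrix arm 2 were higher and 1 lower, and of 16 of the membrane arm 2 were higher and 0 lower. Over all genes the shares were 5.41% higher and 11.9% lower. The medians of the arms were 0.094 and 0.081. Ndufab1, the mitochondrial acyl carrier protein present in both arms, differed by -0.13 (95% interval -0.36 to 0.10). The differences within complex I thus ran in both directions, from -0.23 to 0.42.

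**Figure D4:**
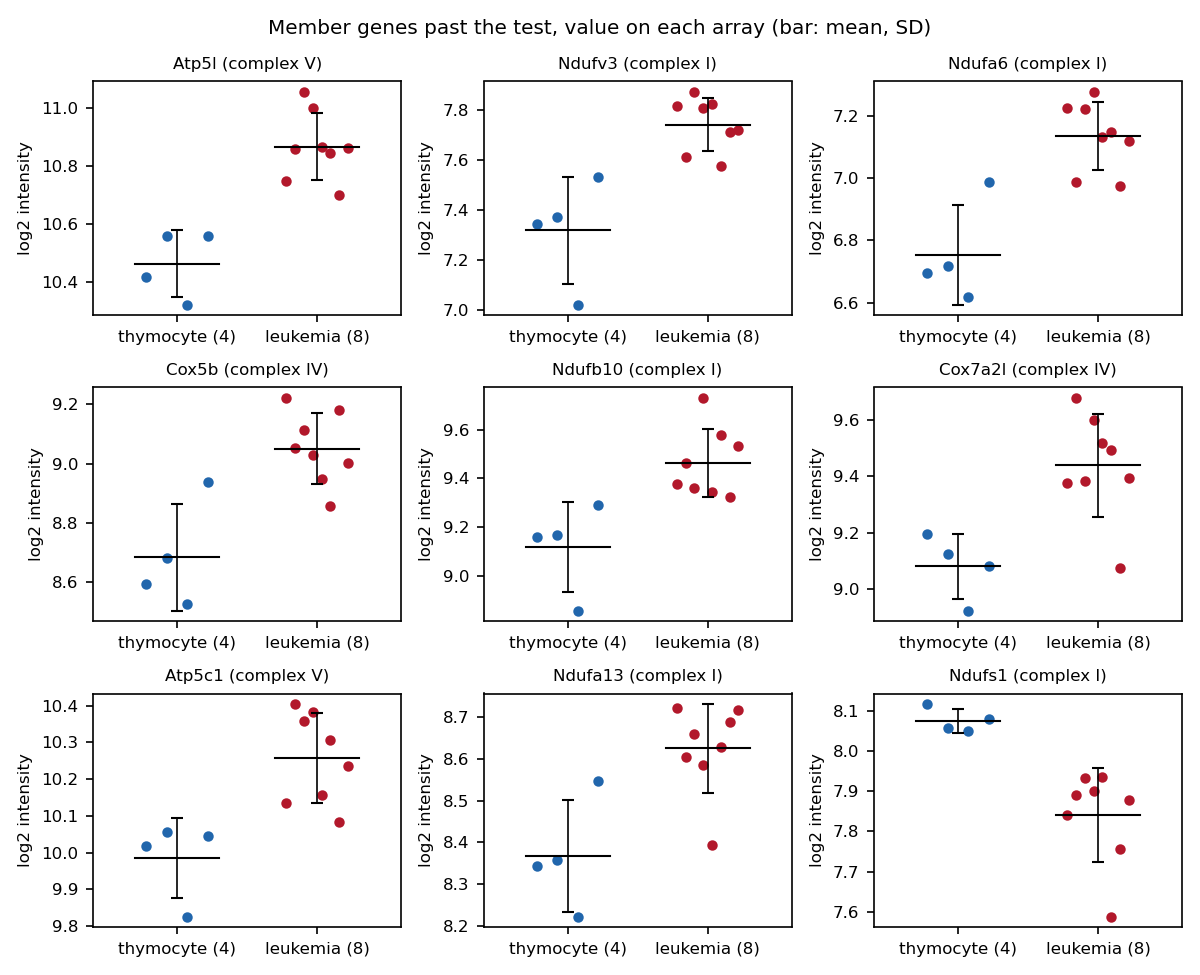
Log2 intensity on each array (y axis) of the 9 genes past the test, thymocytes in blue (4 arrays) and leukemias in red (8 arrays), with the group mean (bar) and SD (whisker); each panel has its own scale. The groups do not overlap for Atp5l, Ndufv3, Atp5c1, Ndufb10 and Ndufs1, and Ndufs1 alone is lower in leukemia.

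Complex II, the succinate dehydrogenase, which also works in the citric acid cycle, had 0 of 4 genes past the test (limma, with 2 at an unadjusted p under 0.05). Over all genes 17.3% passed, so that 0 of so few genes says little. The complex II median was -0.041, which ran from -0.11 without thymocyte array 3 to -0.0020 without leukemia 5. Its membrane anchor subunits pointed in opposite directions. Sdhc was at 8.85, 8.88, 8.68 and 8.82 in thymocyte arrays 1 to 4, and in the leukemias it ran from 8.43 to 8.79 with a median of 8.67. Sdhd was at 9.25, 9.26, 9.03 and 9.22 in thymocyte arrays 1 to 4, and in the leukemias it ran from 9.22 to 9.56 with a median of 9.34. Neither passed, with differences of -0.17 (95% interval -0.34 to -0.0099) and 0.17 (95% interval 0.009 to 0.33), and the groups overlapped for both. The flavoprotein Sdha and the iron-sulfur subunit Sdhb differed by -0.15 and 0.069. Complex III, the cytochrome bc1 complex, had 0 of 7 genes past the test (limma, with 1 at an unadjusted p under 0.05), again beside 17.3% of all genes. Its median of 0.011 has no settled sign: it ran from -0.022 without thymocyte array 3 to 0.11 without thymocyte array 4. The core subunits Uqcrc1 and Uqcrc2 were among the least different, at -0.018 (95% interval -0.18 to 0.14) and 0.011 (95% interval -0.18 to 0.20). The small hinge subunit Uqcrh was at 9.99, 10.07, 9.83 and 10.23 in thymocyte arrays 1 to 4, and in the leukemias it ran from 10.06 to 10.43 with a median of 10.32. Its difference was 0.25 (SE 0.092, limma adjusted p = 0.0874), and it passed in some other fits, such as that with the macrophage marker score as a covariate (0.33, limma adjusted p = 0.0302), and was at -0.017 within the arrays without a 4-digit number. Uqcr11 differed by 0.15 (SE 0.085, limma adjusted p = 0.258).

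Complex IV, the cytochrome c oxidase, had 2 of 15 genes higher in leukemia (13.3%) and 0 lower, beside 5.41% and 11.9% of all genes. Its median was 0.066, which ran from 0.020 without thymocyte array 1 to 0.13 without thymocyte array 4. Cox5b, a nuclear subunit on the matrix side whose promoter window is shown above, was at 8.59, 8.68, 8.52 and 8.94 in thymocyte arrays 1 to 4, and in the leukemias it ran from 8.86 to 9.22 with a median of 9.04. It rose 1.29-fold (0.37, SE 0.088, limma adjusted p = 0.0106, and 0.0509 without thymocyte array 3), with 7 of 8 leukemias above all thymocyte arrays. Cox7a2l is known as a factor for supercomplexes of complexes III and IV, a role not tested in these mice. It was at 9.20, 9.12, 8.92 and 9.08 in thymocyte arrays 1 to 4, and in the leukemias it ran from 9.07 to 9.68 with a median of 9.44. Leukemia 7 was the lowest, within the range of the thymocyte arrays, and the gene rose 1.28-fold (limma adjusted p = 0.0239, and 0.0952, 0.057 and 0.0522 without thymocyte arrays 3, 2 and 4). Its relative Cox7a2, the general isoform of a structural subunit, differed by -0.046 (95% interval -0.24 to 0.15), and Cox4i1 by 0.066 (95% interval -0.20 to 0.33). A second Cox4i1 probe set, with a letter suffix, differed by 0.28 (limma adjusted p = 0.166 over all probe sets).

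Several subunits of complex IV have isoforms made mainly in muscle or testis. Of the muscle isoforms, Cox6a2 differed by 0.0047 (95% interval -0.18 to 0.19) where its general counterpart Cox6a1 differed by -0.21 (95% interval -0.44 to 0.014). Cox7a1 was near the control level in each group. Cox8b differed by 0.28 on a probe set with a letter suffix (limma adjusted p = 0.215) and by -0.082 on its other one, which was near the control level in each group, as was the general Cox8a. The muscle markers had 5 of 8 genes near the control level in both groups and a mean log2 value of 5.00 to 5.27 in thymocyte arrays and 4.95 to 5.23 in leukemias. The testis isoform Cox8c differed by -0.16 (95% interval -0.38 to 0.064). The other testis isoform, Cox6b2, gave different readings on its 3 probe sets, as the plot of its probe sets shows. The brightest, with the suffix r, was at 6.48, 6.57, 6.09 and 6.69 in thymocyte arrays 1 to 4 and from 6.10 to 7.78 in leukemias (median 6.69), a difference of 0.37 that did not pass. The probe set with the suffix f was at 6.60, 6.43, 6.37 and 6.42 in thymocyte arrays 1 to 4 and from 5.03 to 6.00 in leukemias (median 5.56). On it all leukemias were below all thymocyte arrays, some of them under the control level, with a difference of -0.93 (limma adjusted p = 0.00337 over all probe sets, of which 4.65% were higher and 9.88% lower). The probe set with the suffix i fell by 0.63 (limma adjusted p = 0.0193) from a level near the controls. All 3 carry letter suffixes, which mark probe sets that can cross-hybridize or were chosen under relaxed rules, and what each one reads was not tested. With the mean of all 3 probe sets Cox6b2 was lower in leukemia.

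**Figure D5:**
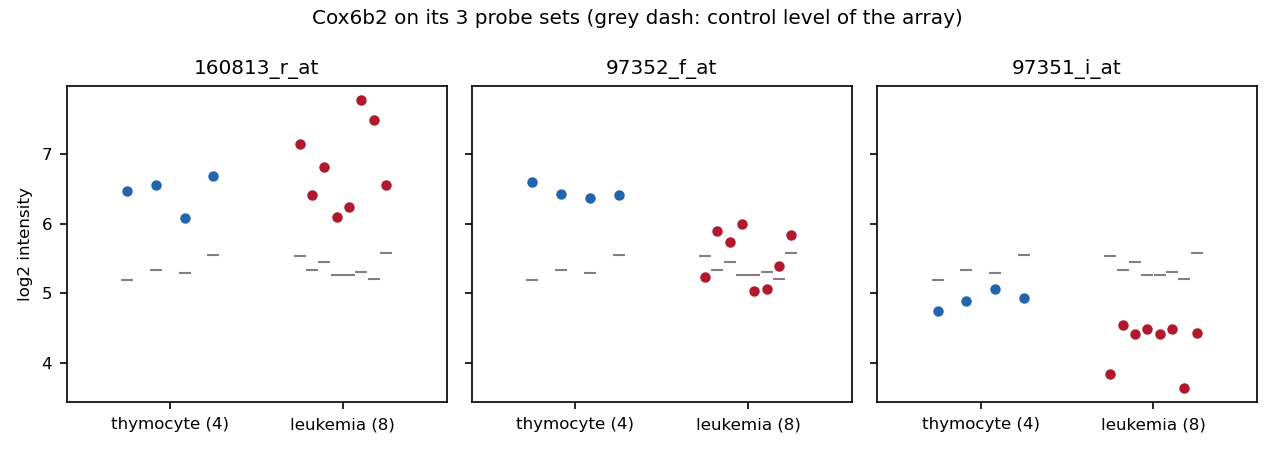
Log2 intensity (y axis) of Cox6b2 on each array by its 3 probe sets, thymocytes in blue (4 arrays) and leukemias in red (8 arrays), with the control level of each array as a grey dash. The groups overlap on the probe set with the suffix r, where leukemias reach 7.78, and do not overlap on those with f and i, where leukemias are lower.

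Complex V, the ATP synthase, had 2 of 14 genes higher in leukemia (14.3%) and 0 lower, beside 5.41% and 11.9% of all genes. Its median was 0.11, which ran from 0.083 to 0.16 (without thymocyte array 4) over the 12 fits that left out 1 array. Atp5l, the g subunit of the membrane part, had the largest moderated statistic of all 73 genes. It was at 10.42, 10.56, 10.32 and 10.56 in thymocyte arrays 1 to 4, and in the leukemias it ran from 10.70 to 11.05 with a median of 10.86. All leukemias lay above all thymocyte arrays, by 0.40 (SE 0.077, limma adjusted p = 0.00264), or 1.32-fold, and the gene passed in each of the 12 fits that left out 1 array, as did Ndufv3 and Ndufa6. Atp5c1, the gamma subunit that forms the central rotor shaft, was at 10.02, 10.06, 9.83 and 10.05 in thymocyte arrays 1 to 4, and in the leukemias it ran from 10.08 to 10.40 with a median of 10.27. The groups did not overlap and the difference was 0.27 (SE 0.079, limma adjusted p = 0.0293), but a second probe set of Atp5c1, without a suffix, differed by 0.11 (limma adjusted p = 0.591 over all probe sets), and the call was also lost without thymocyte array 1, 2 or 3 or leukemia 3. Among the other measured subunits of F1, the part outside the membrane, Atp5a1, the alpha subunit, differed by -0.10 (95% interval -0.23 to 0.037), Atp5d by 0.15 and Atp5e by 0.25.

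The c ring, which turns as protons pass, is built from copies of a single protein that several genes encode, of which Atp5g1 and Atp5g2 were measured. Atp5g1 was at 7.65, 7.65, 7.87 and 7.72 in thymocyte arrays 1 to 4, and in the leukemias it ran from 7.58 to 8.03 with a median of 7.76. Atp5g2 was at 7.43, 7.39, 7.31 and 7.74 in thymocyte arrays 1 to 4, and in the leukemias it ran from 7.46 to 8.01 with a median of 7.74. The groups overlapped for both genes, and neither passed, with differences of 0.061 (95% interval -0.14 to 0.26) and 0.30 (95% interval 0.051 to 0.55). The stalk genes Atp5o, Atp5j and Atp5pb differed by -0.049, -0.02 and 0.18. The small membrane subunits Atp5md, Atp5mpl, Atp5j2 and Atp5k had differences from -0.0082 to 0.16, and none passed (limma, unadjusted p of 0.088 or more).

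The assembly factors are not part of the finished complexes. Sdhaf1, which helps to insert the iron-sulfur clusters of complex II, was at 7.58, 7.53, 7.57 and 7.30 in thymocyte arrays 1 to 4, and in the leukemias it ran from 7.56 to 8.22 with a median of 7.80. Of the 8 leukemias 7 lay above all thymocyte arrays, and the difference of 0.33 (SE 0.11, limma adjusted p = 0.0538) just missed the threshold, which it passed in some other fits, such as quantile normalization (0.39, limma adjusted p = 0.0202), while with the macrophage covariate the value was 0.22 (adjusted p = 0.207). Ndufaf1, Ndufaf4 and Sdhaf2 differed by 0.053, 0.037 and 0.049, and did not pass. Ndufaf1 and Ndufaf4 act on complex I, and Sdhaf2 attaches the flavin of Sdha.

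The leukemias also differed among themselves. Over the 73 genes leukemia 3 had the highest median, 0.15, with 34 genes (46.6%) above every thymocyte array and 4 (5.48%) below, beside 25.3% and 28.5% of all genes on that array. Leukemia 5 was at -0.0094 with 15 (20.5%) above and 19 (26.0%) below, beside 28.1% and 32.7%, and leukemia 7 at 0.022 with 17 (23.3%) either way, beside 30.5% and 40.0%. On leukemias 5 and 7 the shares of the genes outside the thymocyte range were thus below those of all genes in both directions. Leukemias 5 and 7 were the lowest of the group for 21 and 20 of the genes. They also had the highest mean log2 values of macrophage markers, 7.66 and 7.75, followed by leukemia 3 with 7.28. The 5 measured B-cell markers likewise each peaked in leukemia 5 or 7. Cd79b did so in leukemia 5 (8.49), and Cd79a (9.10), Ms4a1 (7.72), Pax5 (6.88) and Cr2 (3.33, near the control level) in leukemia 7. The part of the B-cell markers in the result was not tested. That of the macrophage markers was not tested beyond a fit with the macrophage mean as a covariate. That fit gave 9 higher and 0 lower genes (beside 4.68% and 8.74% of all genes) and a median of 0.11. All 8 of the higher genes were among the 9, and Uqcrh was the other. Over the 73 genes, pairs of leukemias correlated at 0.985 to 0.997, pairs of thymocyte arrays at 0.994 to 0.998, and a leukemia with a thymocyte array at 0.982 to 0.996. These points share the brightness of their probe sets.

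Other mitochondrial genes were taken from lists by function. Beside each count stand the same 5.41% higher and 11.9% lower over all genes. Of 8 measured electron carriers and oxidase factors outside the symbol rule 2 rose and 0 fell. Etfb, a subunit of the flavoprotein that brings electrons from fatty acid oxidation, was at 8.08, 8.06, 8.01 and 8.21 in thymocyte arrays 1 to 4, and in the leukemias it ran from 8.56 to 9.06 with a median of 8.75. All leukemias were above all thymocyte arrays, and Etfb rose 1.62-fold (0.69, SE 0.085, limma adjusted p = 0.000114). Surf1, an assembly factor of complex IV, rose 1.37-fold (limma adjusted p = 0.000387). Cox17, a copper chaperone of complex IV, differed by 0.30 and Cyc1, a complex III subunit outside the rule, by -0.13, and neither passed. Cytochrome c itself (Cycs) lay near the control level. Of 6 carriers and porins 1 rose: Slc25a4, an ADP/ATP exchanger that serves complex V, was at 9.44, 9.41, 9.23 and 9.45 in thymocyte arrays 1 to 4, and in the leukemias it ran from 9.66 to 10.14 with a median of 9.97. Its groups did not overlap and it rose 1.48-fold (limma adjusted p = 0.000549), while Slc25a5, its close relative, differed by 0.066 and the porins Vdac1 and Vdac2 by 0.12 and -0.093.

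Of 15 genes of the citric acid cycle and pyruvate dehydrogenase 0 rose and 2 fell, with a median of -0.083: Ogdh, a subunit of the oxoglutarate dehydrogenase (0.85-fold, limma adjusted p = 0.0229), and Pdhb, a subunit of pyruvate dehydrogenase (0.758-fold, limma adjusted p = 0.0318). Dlat, another pyruvate dehydrogenase component, differed by -0.18 and did not pass. Of 61 mitochondrial ribosome genes 3 rose and 2 fell, with a median of -0.0045; Mrps34 rose by 0.49, and Mrpl37 and Mrps22 fell by 0.26 and 0.40 on the log2 scale. Of 17 import genes 1 fell, Tomm34 (-0.24), and Tomm70a and Timm22 differed by -0.27 and -0.14. Of 12 biogenesis and mitochondrial DNA genes 0 rose and 3 fell. Gabpb1, a subunit of GABP, was at 7.73, 7.63, 7.51 and 7.58 in thymocyte arrays 1 to 4, and in the leukemias it ran from 6.53 to 7.24 with a median of 6.88. Every leukemia lay below every thymocyte array, and Gabpb1 fell to 0.598-fold (limma adjusted p = 0.000515). Yy1 (log2 difference -0.65) and Polg, the mitochondrial DNA polymerase (-0.36), also fell, and Gabpa, the DNA-binding GABP subunit, differed by -0.49 (limma adjusted p = 0.0735). Tfam, which packages mitochondrial DNA, was close to the control level on both sides. Etfb, Surf1, Slc25a4, Mrps34 and Gabpb1 passed in each fit that left out 1 array, whereas Ogdh, Pdhb, Mrpl37, Mrps22, Tomm34, Yy1 and Polg each missed the threshold without 1 or more single arrays, among them thymocyte array 2 for all but Tomm34, which missed it without thymocyte array 3.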

How the data were processed

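RNA of thymus cell suspensions was measured on 12 arrays, 8 of TEL-JAK2 leukemic cells and 4 of wild-type thymocytes, grouped by the cell type label. The authors deposited 1 intensity per probe set and array on a linear scale, made with RMA per the submitters' processing notes; no version or further step is named. All values were above 0 and were converted to log2 with no offset or further normalization. Of 12422 probe sets without Affymetrix controls, 10833 had 1 gene in the platform annotation, 396 several and 1193 none. All 73 member symbols matched RefSeq names of GRCm38.p6. Groups were compared by limma 3.58.1 under R 4.3.3 (linear models with eBayes, two-sided, Benjamini-Hochberg over all 8251 genes, or over all probe sets where stated); the fit was checked on simulated data. The control level is the 95th percentile of 19 non-mouse control probe sets.

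Named genes are all those past the test (up to 8 per complex), otherwise the 2 with the largest moderated statistic per complex, the muscle isoforms with their counterparts, and 3 per list of other mitochondrial genes; others were named after their values were seen, as were Cox6b2 and Cox8c. Members and lists were chosen with earlier results of these data known. Of the other cell markers, Epcam (log2 difference 1.37) and Krt18 (-0.40) passed, near the control level. Marker lists of B cells, erythroid cells, fat and thymic epithelium had mean differences of 0.27, -0.22, -0.065 and 0.018. For the T-cell markers the mean difference was -0.47, with genes running from -2.50 (Rag1) and -1.89 (Cd4) to 1.38 (Cd2). Alternatives covered normalization, filters, variance models, probe set choice, thresholds, title numbers, the macrophage score and leaving out each array.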

Additional observations from a re-analysis of the deposited data

Results flagged for a closer look

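Among 58 sets of group values checked for a stray array (named genes and the medians of the complexes), 6 had 1 array apart from the rest of its group by Dixon's criterion, where chance gives about 1 in 20. In the thymocyte group array 3 was the lowest in 4 of these: Sdhd at 9.03 (next 9.22), Uqcr11 at 8.44 (next 8.72), Atp5c1 at 9.83 (next 10.02) and the median of the complex II genes at -0.18 (next 0.026). Thymocyte array 4 was the lowest for Sdhaf1, at 7.30 (next 7.53). Among the leukemias, Ndufa13 in leukemia 5 was lowest, at 8.39 (next 8.59).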

How the results depend on the processing

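The main counts were 8 genes higher and 1 lower, with a median difference of 0.069. With array weights they were 22 and 4, at an adjusted p under 0.01 3 and 0, against a 1.2-fold threshold (limma treat) 0 and 0 (1 at an unadjusted p under 0.05), with the mean of all probe sets 9 and 2, within the 4-digit arrays 12 and 0, and with the macrophage covariate 9 and 0. Over all genes the percentages higher and lower were 3.14 and 6.75 at 0.01, 1.87 and 3.08 against 1.2-fold, and 5.36 and 11.8 with the mean of probe sets. Within the arrays without a 4-digit number, an alternative chosen after seeing the data, the median was -0.020, beside -0.024 over all genes. That fit holds only 1 thymocyte array, so its counts of calls say nothing about the members. Quantile normalization gave 12 and 1 (5.99% and 10.8% of all genes), median centring 10 and 1 (5.62% and 11.3%), a fit of genes above the median brightness 11 and 1 (8.58% and 18.7%), trend with robust variance 8 and 1 (5.28% and 11.7%), and leaving out suffixed probe sets 8 and 1 of 59 (5.61% and 12.7% of 7660 genes). Leaving out 1 array gave 3 to 11 higher and 0 to 1 lower genes and medians from 0.059 to 0.11. No call past the test reversed its direction under any of these. The 3 genes past an adjusted p of 0.01 were Atp5l, Ndufv3 and Ndufa6. No paired analysis was possible because the groups share no replicate numbers in the labels. Few arrays, small differences and 6 genes near the control level limit what can be seen.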
